A study of Mus musculus with 12 samples.

Results

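OP9 stromal cells that had been in imatinib for 96 h were compared with cells that had been in it for 64 h, to see what still changed late in the exposure. The 3 arrays labelled imatinib 96 h and the 3 labelled imatinib 64 h, 6 of the 12 arrays of the series, were compared across every detected gene. OP9 is a mouse bone marrow-supporting stromal line, labelled here as mesenchymal stromal cells from the newborn calvaria of B6C3F1 op/op mice; the op allele removes functional macrophage colony-stimulating factor (Csf1), and both groups carry it. The other arrays hold 3 samples of the same line with imatinib at 32 h and 3 with vehicle, labelled 0 h. The labels give no dose, and no vehicle sample is labelled 64 h or 96 h, so time in imatinib and time in culture cannot be told apart. All samples come from 1 line, and whether a group's samples came from separate cultures is not stated in the labels, so the p-values reflect only the spread among these arrays, which may be technical.

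Each array read 45281 probes from biotin-labelled cRNA, and values are log2 of the background-corrected, quantile-normalized intensity. A probe detected (detection p under 0.05) on at least 3 of the 12 arrays was tested. That left 18897 probes, and 10211 genes when each gene was represented by its brightest probe. Between 16162 and 17332 probes were detected per array. A gene called higher or lower at 96 h had an adjusted p under 0.05 in limma's moderated test, adjusted over all tested probes. The labels put the 96 h and vehicle samples under array label 1 and the 64 h and 32 h samples under array label 2, so in this comparison array label and time cannot be told apart. The vehicle and 32 h values are therefore given beside the main genes, since vehicle shares the array label of 96 h, and 32 h that of 64 h. Along the first principal component (36.3% of the variance) the 96 h arrays scored 21.1 to 24.1 and the 64 h arrays 13.4 to 14.8. The second component (10.47%) held the array labels wholly apart. On it, vehicle scored 5.17 to 9.53 and 96 h 10.05 to 17.15, against -17.19 to -5.32 for 32 h and -12.61 to -5.61 for 64 h. What array label and time each add to this component was not tested.

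Imatinib blocks several tyrosine kinases, among them ABL, KIT and the PDGF receptors, and stromal cells depend on PDGF receptors for growth signals. Proliferins, encoded by the Prl2c genes, are secreted hormones of the prolactin family that are made in the mouse placenta and by growth-stimulated mouse fibroblasts. Replication-dependent histone genes supply the histones that package new DNA in S phase, and stromal factors such as Cxcl12 and Il7 hold and feed developing lymphoid cells.

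Promoters are shown for genes of the leading groups below. They are a proliferin gene and Trem2 among those lower at 96 h and 3 histone genes among those higher. Each promoter printed holds a match to a motif named below. The promoter of Aqp1, which like Trem2 was called under every alternative, held none of the 3 motifs and is not printed. Each is 300 bases, 250 before to 50 after the start in RefSeq's GRCm38.p6 annotation, written 5′ to 3′ on the gene's strand. Capitals mark matches to 3 motifs searched on both strands: the AP-1 motif in a loose form, TGANTCA, the octamer ATTTGCAT and the cAMP response element TGACGTCA. In the loose AP-1 form, N stands for any base.
Prl2c3, chr13:12800030-12800329, minus strand: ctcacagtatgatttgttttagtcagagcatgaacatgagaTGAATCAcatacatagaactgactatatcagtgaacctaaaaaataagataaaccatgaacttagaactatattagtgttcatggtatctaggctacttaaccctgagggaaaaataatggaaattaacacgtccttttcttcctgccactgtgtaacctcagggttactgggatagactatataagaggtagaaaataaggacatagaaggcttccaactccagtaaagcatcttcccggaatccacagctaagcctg
Trem2, chr17:48346151-48346450, plus strand: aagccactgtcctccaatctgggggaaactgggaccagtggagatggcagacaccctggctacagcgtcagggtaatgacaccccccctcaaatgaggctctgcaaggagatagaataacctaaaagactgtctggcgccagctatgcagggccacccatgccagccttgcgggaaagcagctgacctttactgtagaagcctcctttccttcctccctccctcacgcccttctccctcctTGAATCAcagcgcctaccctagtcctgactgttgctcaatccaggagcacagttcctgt
H4c1, chr13:23761200-23761499, minus strand: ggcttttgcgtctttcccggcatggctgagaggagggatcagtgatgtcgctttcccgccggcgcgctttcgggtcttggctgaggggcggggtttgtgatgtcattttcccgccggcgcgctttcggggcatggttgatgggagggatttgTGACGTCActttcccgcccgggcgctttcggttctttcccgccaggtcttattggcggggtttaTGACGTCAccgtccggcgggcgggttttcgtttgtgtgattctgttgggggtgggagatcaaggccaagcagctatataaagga
H4c8, chr13:23530794-23531093, plus strand: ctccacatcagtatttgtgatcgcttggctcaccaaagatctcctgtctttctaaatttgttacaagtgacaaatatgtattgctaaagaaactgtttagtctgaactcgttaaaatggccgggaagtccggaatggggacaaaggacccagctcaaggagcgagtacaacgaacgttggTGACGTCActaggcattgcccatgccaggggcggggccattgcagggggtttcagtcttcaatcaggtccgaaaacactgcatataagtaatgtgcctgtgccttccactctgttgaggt
H2bc14, chr13:21721794-21722093, plus strand: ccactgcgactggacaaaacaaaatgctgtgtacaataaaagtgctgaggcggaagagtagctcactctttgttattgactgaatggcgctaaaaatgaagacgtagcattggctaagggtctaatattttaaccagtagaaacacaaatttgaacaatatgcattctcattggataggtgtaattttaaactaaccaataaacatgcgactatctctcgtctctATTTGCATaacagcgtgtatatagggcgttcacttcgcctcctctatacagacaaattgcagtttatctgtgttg

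The loose AP-1 motif lay in the promoters of Prl2c3 and Trem2, in both as TGAATCA. The cAMP response element lay in those of H4c1, with 2 matches, and H4c8, and the octamer in that of H2bc14. No match overlapped another in these promoters. Among 32851 RefSeq promoters of this length, 7.81% held the AP-1 motif, 1.79% the cAMP response element and 1.74% the octamer. Of the 14 genes lower at 96 h, 9 matched a promoter entry. These 9 genes have 13 promoters, of which 3 held the AP-1 motif, the third being that of Diras2. Of the 12 genes higher at 96 h, 8 matched, with 10 promoters; 3 held the cAMP response element (the third that of Lmcd1) and 1 the octamer. A match is a description of these letters and not evidence of a bound factor.

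Few genes passed the test between 96 h and 64 h. At 96 h, 14 genes were lower (0.137% of those tested) and 12 were higher (0.118%), 26 in all (0.255%). Among probes, 27 were lower (0.143%) and 25 higher (0.132%), 52 together (0.275%). The change was at least 2-fold for 4 of the genes that fell, Prl2c2, Prl2c3, Prl2c4 and Aqp1, and for 1 that rose, the predicted gene Gm5662. The median SE of a log2 change was 0.15, and the median change over all genes was -0.000972. The step before it, 64 h against 32 h, which shares the 64 h arrays, called 191 probes (1.01%). The count fell when any 96 h or 64 h array was left out, which also leaves fewer arrays in that group. Without imatinib 96 h replicate 1, 5 genes were lower and 2 higher, and without imatinib 64 h replicate 3, 6 were lower and 2 higher. The count also fell to 6 lower and 5 higher without 96 h replicate 2, and 6 and 6 without 96 h replicate 3. It was 6 and 5 without 64 h replicate 1, and 8 and 4 without 64 h replicate 2. With 1 vehicle or 32 h array left out, 11 to 14 genes were lower and 10 to 12 higher.

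**Figure D1:**
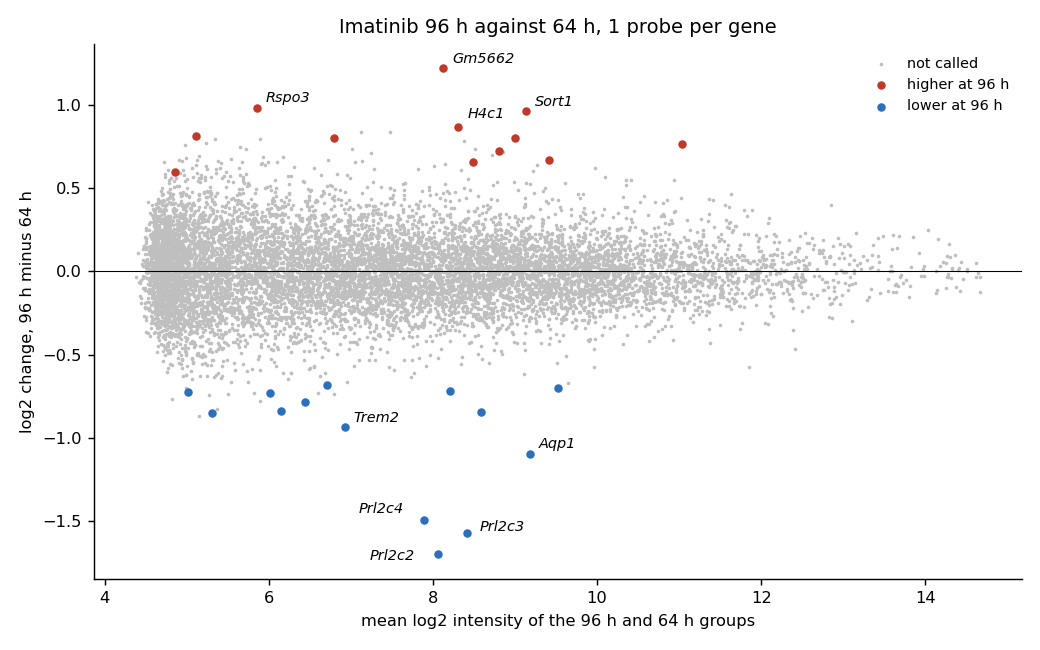
Log2 change (96 h minus 64 h, y axis) of each of 10211 genes against its mean log2 intensity over both groups (x axis); red points are the 12 genes higher and blue points the 14 genes lower at 96 h by limma, grey points the rest. The 3 proliferin genes lie lowest, at -1.50 to -1.70, apart from all other genes.

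The proliferin genes fell most. Prl2c2 was at 7.11, 7.44 and 7.08 log2 intensity on the 96 h arrays, against 8.80, 8.86 and 9.08 on the 64 h arrays. Prl2c3 was at 7.58, 7.66 and 7.66 at 96 h, against 9.29, 9.30 and 9.03 at 64 h. Every 96 h array lay well below every 64 h array for both genes, with gaps several times the spread within a group. The fall was 3.26-fold for Prl2c2 (log2 -1.70 ± 0.13 SE, adjusted p = 2.07e-05, n = 3 per group) and 2.97-fold for Prl2c3 (-1.57 ± 0.13, the same adjusted p). Prl2c4 was 2.82-fold lower (-1.50 ± 0.12), at 7.27, 7.05 and 7.09 at 96 h against 8.62, 8.56 and 8.72 at 64 h. The RefSeq table lists Prl2c4 as a synonym of Prl2c3, and because these genes are near copies of each other, a probe may read more than 1 of them. The second probe of Prl2c2 fell as well (-1.42 ± 0.12, adjusted p = 5.01e-05).

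Prl2c1 did not pass, at -0.49 ± 0.22 (adjusted p = 0.427). It was detected on 0 of the 3 arrays at 96 h and on 1 of 3 at 64 h, while all 3 vehicle arrays detected it. The probe of Prl2c5 did not pass the detection filter. Of the 5 listed family members, 4 were thus measured and 3 fell, with a median change of -1.53 against -0.000972 over all genes. The order over the groups was steady: mean Prl2c2 intensity was 11.86 in vehicle, 9.87 at 32 h, 8.91 at 64 h and 7.21 at 96 h. From 32 h to 64 h, Prl2c2 changed by -0.96 (adjusted p = 0.0020), Prl2c3 by -1.12 and Prl2c4 by -0.92. These steps share the 64 h arrays with the later step, so the sizes are given side by side only. The vehicle arrays carry the same array label as the 96 h arrays and lay at the opposite end for all 3 genes. With each of the 12 arrays left out in turn, the highest adjusted p was 0.000343 for the 3 genes.

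**Figure D2:**
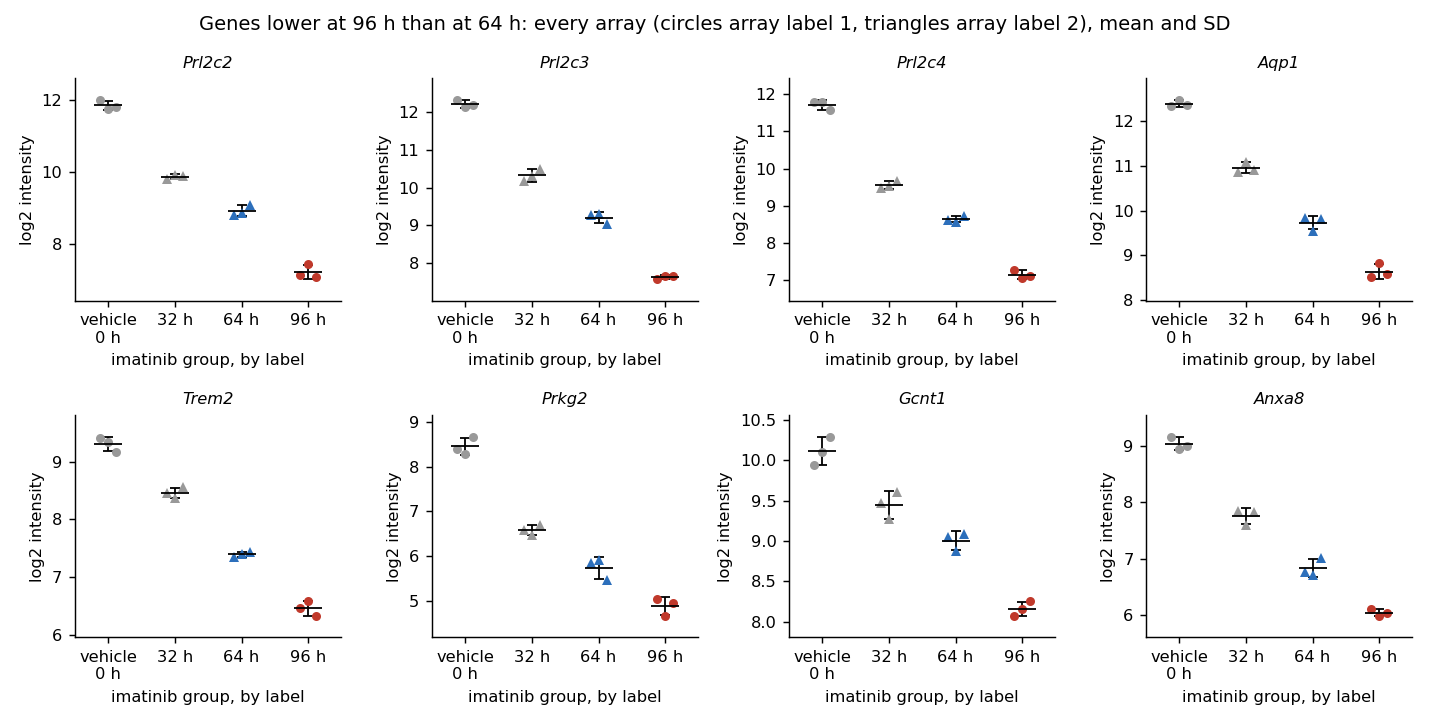
Log2 intensity (y axes) of 8 genes that fell between 64 h and 96 h, on every array of the 4 groups in order of labelled time (x axes); circles are array label 1, triangles array label 2, and bars are the mean and SD of 3 arrays. In each panel the 96 h circles lie below the 64 h triangles, and the vehicle circles lie highest.

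Genes of membrane proteins followed the proliferins. Aqp1, which encodes a water channel, was at 8.51, 8.82 and 8.57 at 96 h, against 9.83, 9.55 and 9.81 at 64 h. The fall was 2.14-fold (-1.10 ± 0.13, adjusted p = 0.00173), and both other probes of the gene fell too (-1.10 ± 0.17 and -0.82 ± 0.15). Trem2, a receptor best known from macrophages, microglia and osteoclasts, was at 6.46, 6.58 and 6.33 at 96 h, against 7.34, 7.40 and 7.44 at 64 h. The groups lay apart by more than their whole spread, and Trem2 was 1.91-fold lower (-0.94 ± 0.12, adjusted p = 0.00345). From 32 h to 64 h, Aqp1 had changed by -1.22 and Trem2 by -1.06. Both kept their call with each array left out in turn, with adjusted p up to 0.0189 for Aqp1 and 0.0357 for Trem2.

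Trem2 is a gene of myeloid cells, so the myeloid marker list was examined beside it. Of 15 listed myeloid markers, 7 were measured and 0 were called; 3 of the 7 changes were positive, and they ran from -0.57 to 0.70 with a median of -0.11. Their summed linear intensity was 349 to 401 for vehicle, 440 to 475 for 32 h, 657 to 723 for 64 h, and 919 to 938 for 96 h. The lysozyme genes Lyz1 (0.70 ± 0.14, adjusted p = 0.0560) and Lyz2 (0.46 ± 0.15, adjusted p = 0.238) were the brightest members and carried most of that sum at 96 h and 64 h, while Cd14 (-0.57, adjusted p = 0.300) lay on the side of Trem2. The defining leukocyte marker Ptprc did not pass the detection filter, and Csf1r and Aif1 were at mean levels of 4.84 and 4.66 at 96 h, near the floor of the scale. Stromal markers were well detected: 14 of 19 were measured and 0 called, with a median change of 0.02. A cell type share and RNA per cell cannot be told apart in such bulk samples, and their part in the result was not tested.

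The remaining genes that fell had smaller changes. Prkg2, the cGMP-dependent kinase that controls growth plate cartilage, was at 5.03, 4.66 and 4.96 at 96 h, against 5.83, 5.91 and 5.46 at 64 h (-0.85 ± 0.15, adjusted p = 0.0282), and 2 of the 3 arrays at 96 h detected it. Gcnt1, which builds branched core 2 O-glycans, was at 8.07, 8.16 and 8.25 at 96 h, against 9.05, 8.87 and 9.09 at 64 h (-0.84 ± 0.13, adjusted p = 0.0123). The groups did not overlap for either gene, and the second probe of Gcnt1 fell by nearly the same amount (-0.80 ± 0.14). Cdh13, the GPI-anchored T-cadherin that binds adiponectin, was at 5.80, 5.63 and 5.78 at 96 h, against 6.62, 6.58 and 6.52 at 64 h (-0.84 ± 0.15, adjusted p = 0.0232). Its 2 other probes did not pass (-0.36 ± 0.16 and -0.03 ± 0.16), nor did the mean of its probes. Anxa8, a calcium-dependent membrane-binding annexin, was at 6.11, 6.0 and 6.04 at 96 h, against 6.77, 6.72 and 7.01 at 64 h (-0.79 ± 0.12, adjusted p = 0.0129).

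Smaller falls were seen in Diras2, a Ras-family GTPase gene (-0.73 ± 0.14, adjusted p = 0.0485), and Cdsn, which encodes the adhesion protein corneodesmosin (-0.72 ± 0.12, adjusted p = 0.0150). The 2 other probes of Cdsn did not pass (-0.48 ± 0.15 and -0.34 ± 0.21), nor did the mean of its probes. The second probes of Anxa8, Diras2, Sncg and Sertad4, at -0.70, -0.63, -0.61 and -0.66 in that order, had the same sign and did not pass. Sncg, the gamma-synuclein gene, and Sertad4 fell by 0.70 and 0.68 on the log2 scale (adjusted p = 0.0453 and 0.0301). Rps20, a ribosomal protein gene, was at 4.69, 4.75 and 4.51 at 96 h, where no array detected its only kept probe, against 5.41, 5.32 and 5.39 at 64 h. The reading was therefore at least 1.44-fold lower at 96 h (adjusted p = 0.0282), and its vehicle arrays, at 4.66 to 4.98, lay on the side of 96 h. This probe was dim in every group, with a mean of 5.02 at 32 h, and what share of the gene's RNA it reads was not tested. Of the 14 genes that fell, Rps20 was the 1 whose means were not in falling order from vehicle through 32 h and 64 h to 96 h.

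The calls below Trem2 were less firm. With single arrays left out, the call ended for Gcnt1 and Anxa8 in 4 of 12 cases, for Prkg2 in 5, and for Cdh13, Cdsn and Rps20 in 6. It ended for Sertad4 in 7, for Diras2 in 11 and for Sncg in 12. The highest adjusted p in these fits was 0.187, for Diras2, and no gene changed direction. All but Rps20 kept vehicle on the far side of 64 h from 96 h.

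Among the genes that rose, a sorting receptor and a Wnt amplifier came first after Gm5662. Gm5662, a predicted gene, was at 8.52, 8.78 and 8.91 at 96 h, against 7.72, 7.65 and 7.18 at 64 h (2.33-fold higher, 1.22 ± 0.16, adjusted p = 0.00461). Its second probe, a dim one detected on 2 of 3 arrays of each group, was at 0.0039 ± 0.19 (adjusted p = 0.998). Sort1, which encodes sortilin, a receptor that sorts proteins between the Golgi, endosomes and the cell surface, was at 9.65, 9.62 and 9.57 at 96 h, against 8.72, 8.64 and 8.59 at 64 h. The 3 values of each group were close to each other, and the groups lay far apart compared with that spread. Sort1 was 1.95-fold higher (0.97 ± 0.14, adjusted p = 0.00918), its second probe rose by 0.88 ± 0.13, and the third, a dim one, did not pass (0.24 ± 0.15). Rspo3, an R-spondin that strengthens Wnt signals at the receptor, was at 6.57, 6.33 and 6.15 at 96 h, against 5.14, 5.28 and 5.66 at 64 h. It was 1.98-fold higher (0.99 ± 0.17, adjusted p = 0.0206). Its relative Rspo2 was at 10.21, 10.10 and 10.56 at 96 h, against 9.32, 9.82 and 9.86 at 64 h, and did not pass (0.62 ± 0.18, adjusted p = 0.193).

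Sort1 had changed by 1.02 from 32 h to 64 h (adjusted p = 0.00190) and Rspo3 by 0.55 (adjusted p = 0.158). Of the 17 measured Wnt pathway genes, Rspo3 was the only one called, and the list's median was 0.02. The call for Sort1 ended without 96 h replicate 1 and without 64 h replicate 3, with adjusted p up to 0.0560. That for Rspo3 ended without 4 of the 12 arrays, with adjusted p up to 0.101: 96 h replicates 1 and 2 and 64 h replicates 1 and 2.

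**Figure D3:**
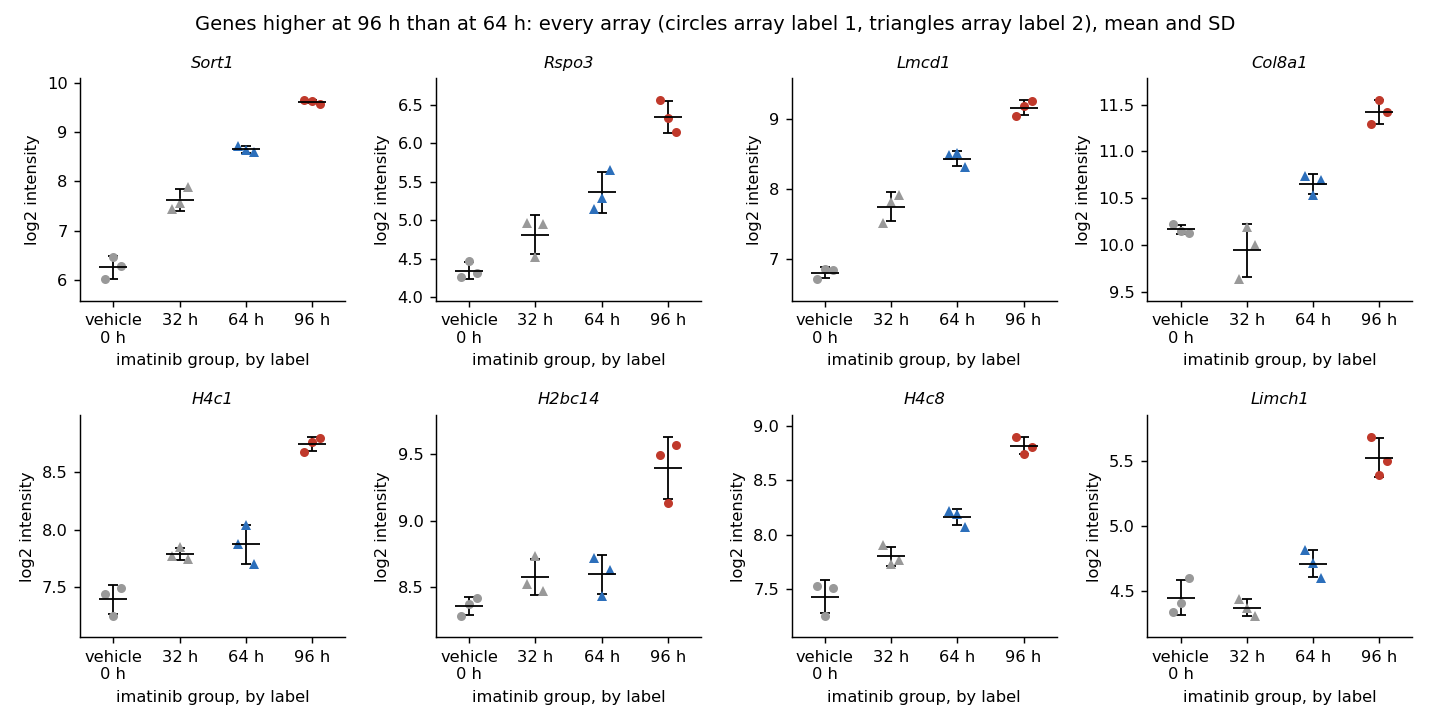
Log2 intensity (y axes) of 8 genes that rose between 64 h and 96 h, on every array of the 4 groups in order of labelled time (x axes); circles are array label 1, triangles array label 2, and bars are the mean and SD of 3 arrays. In each panel the 96 h circles lie highest; Sort1, Rspo3 and Lmcd1 rise at every step, while H4c1 and H2bc14 lie within 0.08 and 0.02 between 32 h and 64 h.

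Histone genes were 3 of the 12 genes that rose. H4c1, a histone H4 gene, was at 8.68, 8.76 and 8.80 at 96 h, against 7.87, 8.05 and 7.70 at 64 h (1.83-fold higher, 0.87 ± 0.12, adjusted p = 0.00881). H2bc14, a histone H2B gene, was at 9.49, 9.13 and 9.57 at 96 h, against 8.72, 8.43 and 8.63 at 64 h (0.80 ± 0.14, adjusted p = 0.0232). H4c8, another H4 gene, was at 8.90, 8.75 and 8.81 at 96 h, against 8.22, 8.19 and 8.07 at 64 h (0.66 ± 0.12, adjusted p = 0.0284). For all 3 genes every 96 h array lay above every array of the other groups. Between 32 h and 64 h these genes had not passed: H4c1 was at 0.08, H2bc14 at 0.02 and H4c8 at 0.36. These are the genes whose promoters with the cAMP response element or the octamer are printed above. Over the measured histone genes, the octamer lay in 4 of 9 H2B, 3 of 13 H2A, 0 of 5 H3 and 0 of 9 H4 promoters. The cAMP response element lay in 2 of 9 H4 promoters, the ones printed, and in 1 of 9 H2B, 1 of 13 H2A and 0 of 5 H3 promoters.

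The histone list was added after the data had been seen, so its count is a description and no support. Of 55 listed histone genes, 40 were measured: 3 rose, 0 fell and 37 did not pass. The median change was 0.39, 34 of 40 values were positive against 49.7% of all genes, and 25 of 40 (62.5%) had every 96 h array above every 64 h array, against 8.69% of all genes. Groups were apart in the other direction for 1 of 40 (2.5%), against 8.02% of all genes. H4c9 (0.74 ± 0.15, adjusted p = 0.0524), H4c11 (0.67 ± 0.14, adjusted p = 0.0619) and H4c6 (0.84 ± 0.20, adjusted p = 0.0960) were among those that did not pass. More of the list was called under other settings, where more genes were called in general. In the list, 13 genes rose with trended and robust variances, 12 without background correction, 10 with offset 50 and 6 of 37 with the strict detection filter. Under these 4 settings 0 fell. Over all genes, 65, 83, 59 and 32 were higher at 96 h in these settings, in that order, against 12 as reported. The mean log2 intensity of the 40 genes was 8.53 to 8.63 in vehicle. The range was 8.54 to 8.64 for 32 h, 8.73 to 8.74 for 64 h, and 9.01 to 9.14 for 96 h. Vehicle, which shares the array label of 96 h, was thus at the low end of the list's mean. A second probe of H2ac13, not counted in the list, was called and lay otherwise, with mean vehicle intensity (10.72) above that of 96 h (10.54). Histone genes of 1 class are nearly identical in their coding parts, so probes can read more than 1 copy and the members are not independent. Most replication-dependent histone transcripts end in a stem-loop without a poly(A) tail, and what share of them the labelling reads was not tested.

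The call for H4c1 ended without 64 h replicate 3, with an adjusted p of 0.0531. That for H2bc14 ended without 5 of the 12 arrays and that for H4c8 without 6, with adjusted p up to 0.116 and 0.127; these are the 96 h and 64 h arrays, apart from 96 h replicate 2 for H2bc14. The range of the list's median over the alternatives was 0.28 to 0.44.

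Cell cycle genes showed the same sign in most members but no single call. Of 23 measured genes of G2 phase and mitosis, 0 were called by limma. At an unadjusted limma p under 0.05, 12 were higher and 1 lower, against 11.3% of all tested probes in either direction. Values were positive for 22 of 23, against 49.7% of all genes. The median was 0.31. With every 96 h array above every 64 h array were 16 of 23 genes (69.6%, against 8.69% of all genes), and 1 (4.35%, against 8.02%) lay the other way. Plk1, a kinase of mitotic entry, was at 8.77, 8.71 and 8.45 at 96 h, against 8.18, 7.74 and 8.17 at 64 h (0.61 ± 0.15, adjusted p = 0.107). Aurka, the Aurora A kinase gene, was at 0.47 ± 0.12 (adjusted p = 0.145), and Ccnf, the cyclin F gene, at 0.59 ± 0.15 (adjusted p = 0.130). The exception was Cenpf, a kinetochore gene, at -0.47 ± 0.20 (adjusted p = 0.378). Aurka and Plk1 passed with trended and robust variances, with offset 50 and, together with Prc1, without background correction.

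Of 40 measured genes of DNA replication and S phase, 0 were called by limma. At an unadjusted limma p under 0.05, 16 were higher and 1 lower, against 11.3% of all tested probes in either direction. The median was 0.28, and 32 of 40 values were positive, against 49.7% of all genes. Groups were apart upward for 21 (52.5%, against 8.69% of all genes) and downward for 1 (2.5%, against 8.02%). Cdc6, which loads the replicative helicase, was at 6.75, 6.73 and 6.80 at 96 h, against 6.24, 6.44 and 6.13 at 64 h (0.49 ± 0.12, adjusted p = 0.116). Prim2, a primase subunit gene, was at 0.51 ± 0.13 (adjusted p = 0.136), and Rrm1, a subunit gene of ribonucleotide reductase, at 0.42 ± 0.13 (adjusted p = 0.200). Prim2 passed with offset 50, and Prim2 and Rrm1 passed without background correction.

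These lists lay apart by array label and were not in order of time. The mean level of the G2 and mitosis list was 7.71 to 7.79 for vehicle, 7.37 to 7.45 for 32 h, 7.43 to 7.55 for 64 h, and 7.73 to 7.83 for 96 h. For DNA replication it was 7.70 to 7.76 for vehicle, 7.40 to 7.50 for 32 h, 7.47 to 7.48 for 64 h, and 7.67 to 7.70 for 96 h. The 2 groups of array label 1 lay above the 2 groups of array label 2 in both lists, so time and array label cannot be told apart here. Over all genes, 103 (1.01%) had the 6 arrays of 1 label wholly above the 6 of the other in the direction of the change.

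**Figure D4:**
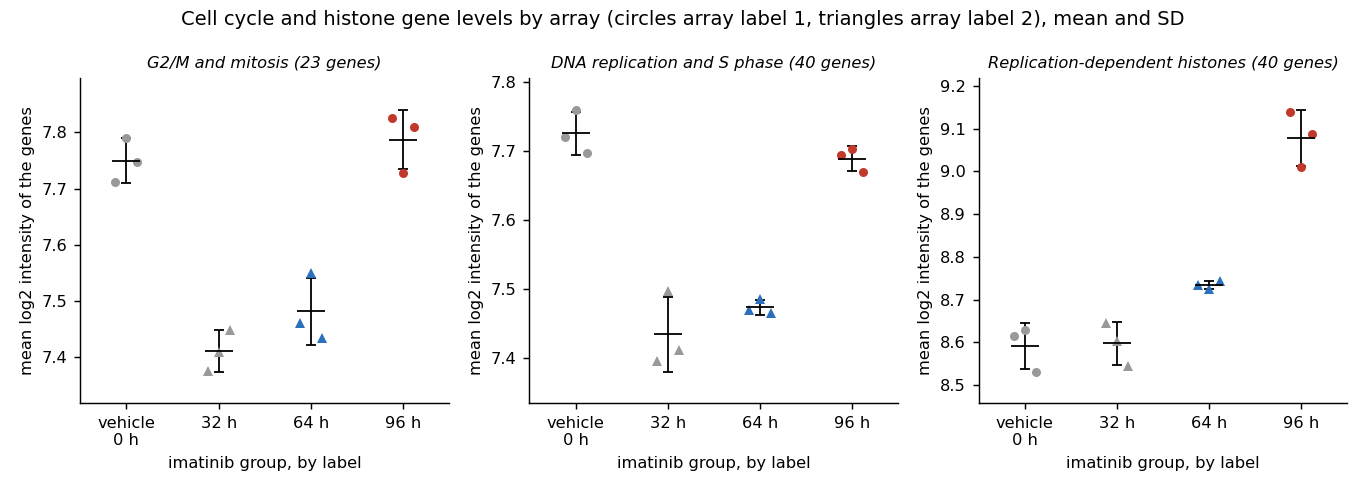
Mean log2 intensity (y axes) of 3 gene lists on every array of the 4 groups in order of labelled time (x axes); circles are array label 1, triangles array label 2, and bars are the mean and SD of 3 arrays. The cell cycle lists are high in vehicle (7.70 to 7.79) and at 96 h (7.67 to 7.83) and low between, while the histone list is highest at 96 h alone (9.01 to 9.14).

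Col8a1, Lmcd1, Limch1 and Gatb rose as well. Col8a1, which encodes a short-chain collagen, was at 11.29, 11.55 and 11.42 at 96 h, against 10.73, 10.53 and 10.69 at 64 h (0.77 ± 0.14, adjusted p = 0.0339), and its second probe rose as well (0.82 ± 0.13). Lmcd1, a LIM-domain cofactor of transcription, was at 9.05, 9.18 and 9.26 at 96 h, against 8.48, 8.52 and 8.31 at 64 h (0.73 ± 0.13, adjusted p = 0.0282), but its 2 other probes did not pass (0.49 ± 0.14, adjusted p = 0.187, and 0.24 ± 0.24, adjusted p = 0.767), and the mean of the probes did not either. Limch1, an actin- and myosin-associated protein gene, was at 5.68, 5.39 and 5.50 at 96 h, against 4.81, 4.71 and 4.60 at 64 h, where 1 of 3 arrays detected it (0.81 ± 0.12, adjusted p = 0.0107). No groups overlapped for these genes. Gatb, a subunit gene of the mitochondrial enzyme that makes glutaminyl-tRNA, rose by 0.67 ± 0.12 (adjusted p = 0.0367), while its 3 other probes, at 0.15 to 0.20, did not pass, nor did the mean of its probes.

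Bcdin3d and 4930524J08Rik stood apart from the other genes that rose. Bcdin3d, an RNA methyltransferase gene, was at 5.19, 5.11 and 5.18 at 96 h, against 4.66, 4.59 and 4.44 at 64 h, where no array detected it, and was at least 1.27-fold higher (adjusted p = 0.0485). Its 32 h arrays (5.25 to 5.45) and vehicle arrays (5.23 to 5.45) lay above those of 64 h, so the 64 h group was the low one of the 4. 4930524J08Rik, an unnamed transcript, was at 7.36, 7.24 and 7.0 at 96 h, against 6.34, 6.51 and 6.34 at 64 h (0.80 ± 0.14, adjusted p = 0.0232). It was the only called gene whose array labels lay wholly apart on its brightest probe. Of the 12 genes that rose, 8 had means in rising order from vehicle through 32 h and 64 h to 96 h; the exceptions were Bcdin3d, 4930524J08Rik, Col8a1 and Limch1. Together with the falling genes, 21 of the 26 called genes were in steady order, against 20.3% of all genes. For 3 (Bcdin3d, 4930524J08Rik and Rps20) vehicle lay on the side of 96 h, against 58.0% of all genes. Among the called probes, vehicle lay on that side for 5 of the 25 higher and 5 of the 27 lower. These counts use the same 64 h and 96 h means as the calls, so they are a description and no support. The call for Limch1 ended without 2 of the 12 arrays, that for Lmcd1 without 6, those for Col8a1 and Gatb without 9 and that for Bcdin3d without all 12 in turn, with adjusted p up to 0.165.

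Stromal factors for lymphoid cells were mostly not past the test at this late step. Il7, a cytokine required by B cell precursors, was at 9.60, 9.60 and 9.79 at 96 h, against 9.18, 9.22 and 9.28 at 64 h (0.43 ± 0.12, 95% interval 0.18 to 0.69, adjusted p = 0.173). The groups did not overlap, and the difference passed without background correction (adjusted p = 0.0129) and with offset 50 (adjusted p = 0.0405), but not as tested here. Cxcl12, the chemokine that retains blood cell precursors in marrow, was read by 4 probes that disagreed. Its brightest probe was at 14.35, 14.37 and 14.38 at 96 h, against 14.13, 14.29 and 14.19 at 64 h, near the top of the scale (0.17 ± 0.11, adjusted p = 0.616). Of the other probes, 2 rose (0.82 ± 0.12, adjusted p = 0.00918, and 0.79 ± 0.14, adjusted p = 0.0282) and the dimmest was at -0.19 ± 0.21. Kitl, the stem cell factor gene, was at 0.24 ± 0.18 and the adhesion gene Vcam1 at 0.02 ± 0.15. Of the 22 measured niche factors, 0 were called, 5 (22.7%, against 8.69% of all genes) lay apart upward and 1 (4.55%, against 8.02%) downward, with a median of 0.04. Bmp4 had the smallest p (0.55 ± 0.12, adjusted p = 0.0811) and was called with trended and robust variances, with the strict filter, with offset 50 and without background correction.

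Several further genes of secreted and signalling proteins lay near the threshold. Vegfc, a growth factor for lymphatic vessels, was at 7.41, 7.33 and 7.41 at 96 h, against 6.74, 6.66 and 6.77 at 64 h (0.66 ± 0.13, adjusted p = 0.0524). Timp3, an inhibitor of metalloproteinases, was at 9.19, 9.37 and 9.38 at 96 h, against 9.97, 9.94 and 10.05 at 64 h (-0.67 ± 0.13, adjusted p = 0.0524). Neither overlapped between groups, and each passed under some alternatives, Vegfc under 10 of 25 and Timp3 under 6. Rspo2 passed under 3 alternatives and Hey1 under 1. The Notch targets Hey1 (0.50 ± 0.16, adjusted p = 0.242) and Hes1 (0.62 ± 0.22, adjusted p = 0.271), the adipokine Adipoq (0.27 ± 0.11, adjusted p = 0.361) and the growth factor Fgf10 (0.14 ± 0.11, adjusted p = 0.668) did not pass. From 32 h to 64 h these 4 were at 1.32, 0.09, 1.03 and 1.16, in that order.

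The measured genes of proteins that imatinib binds did not differ past the test at the RNA level. Of 9 listed targets, 6 were measured and 0 were called. No ABL or KIT gene was among the 6. Pdgfra was at 10.91, 11.21 and 10.97 at 96 h, against 10.70, 11.15 and 10.74 at 64 h, and the groups overlapped (0.17, 95% interval -0.18 to 0.52). The intervals were -0.31 to 0.56 for Pdgfrb, -0.54 to 0.32 for Csf1r, -0.35 to 0.42 for Ddr1, -0.52 to 0.07 for Ddr2 and -0.29 to 0.22 for the quinone reductase gene Nqo2. A gene of this list can thus still differ by the sizes these intervals hold.

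Other gene lists held no or 1 call. In the extracellular matrix list, 44 genes were measured and Col8a1 rose, with a median of 0.05. Of the 44, 8 (18.2%, against 8.02% of all genes) lay apart downward and 5 (11.4%, against 8.69%) upward. In the complement and innate immune list, 16 were measured and Trem2 fell, with a median of 0.19. Among 30 cytosolic ribosomal proteins, Rps20, read by a dim probe, fell and the median was -0.03. In the interferon and antigen presentation list, 27 genes were measured and 0 were called. Of these, 5 (18.5%) were positive, against 49.7% of all genes, 5 (18.5%) lay apart downward, against 8.02%, and 0 upward, against 8.69%, with a median of -0.18. In the cholesterol list, 18 were measured, 0 were called, 5 (27.8%, against 8.02% of all genes) lay apart downward and 0 (against 8.69%) upward. The median was -0.14, with Fdps, a gene of isoprenoid synthesis, at -0.35 ± 0.12 (adjusted p = 0.252).

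No measured member was called in the remaining lists, whose medians lay between -0.12 and 0.09 for the pathway lists. The medians were 0.08 for contractile and YAP or SRF targets (24 measured), 0.09 for adipocyte genes (20), 0.06 for ribosome biogenesis (26), 0.06 for osteoblast genes (13) and -0.03 for chondrocyte genes (5). They were 0.04 for the TGF-beta and BMP pathway (21), -0.0046 for Notch genes (9), -0.12 for secreted growth factors (19) and -0.0041 for genes that respond to receptor tyrosine kinases (25). Stress and organelle lists were close to 0 as well: 0.02 for the unfolded protein response (34), -0.00082 for heat shock proteins (17), -0.08 for NRF2 targets (28), -0.02 for hypoxia and glycolysis (24), -0.03 for lysosome genes (35), -0.03 for oxidative phosphorylation (46) and -0.03 for the proteasome (30). The medians were -0.03 for p53 targets and cell cycle inhibitors (26), -0.01 for integrins and adhesion (19) and -0.05 for inflammatory genes (18). Among markers of other cells, those of lymphoid cells had 3 of 16 measured, of erythroid cells 3 of 9, of endothelium 2 of 13, and of muscle and of epithelium 3 of 11 each, and 0 were called.

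**Figure D5:**
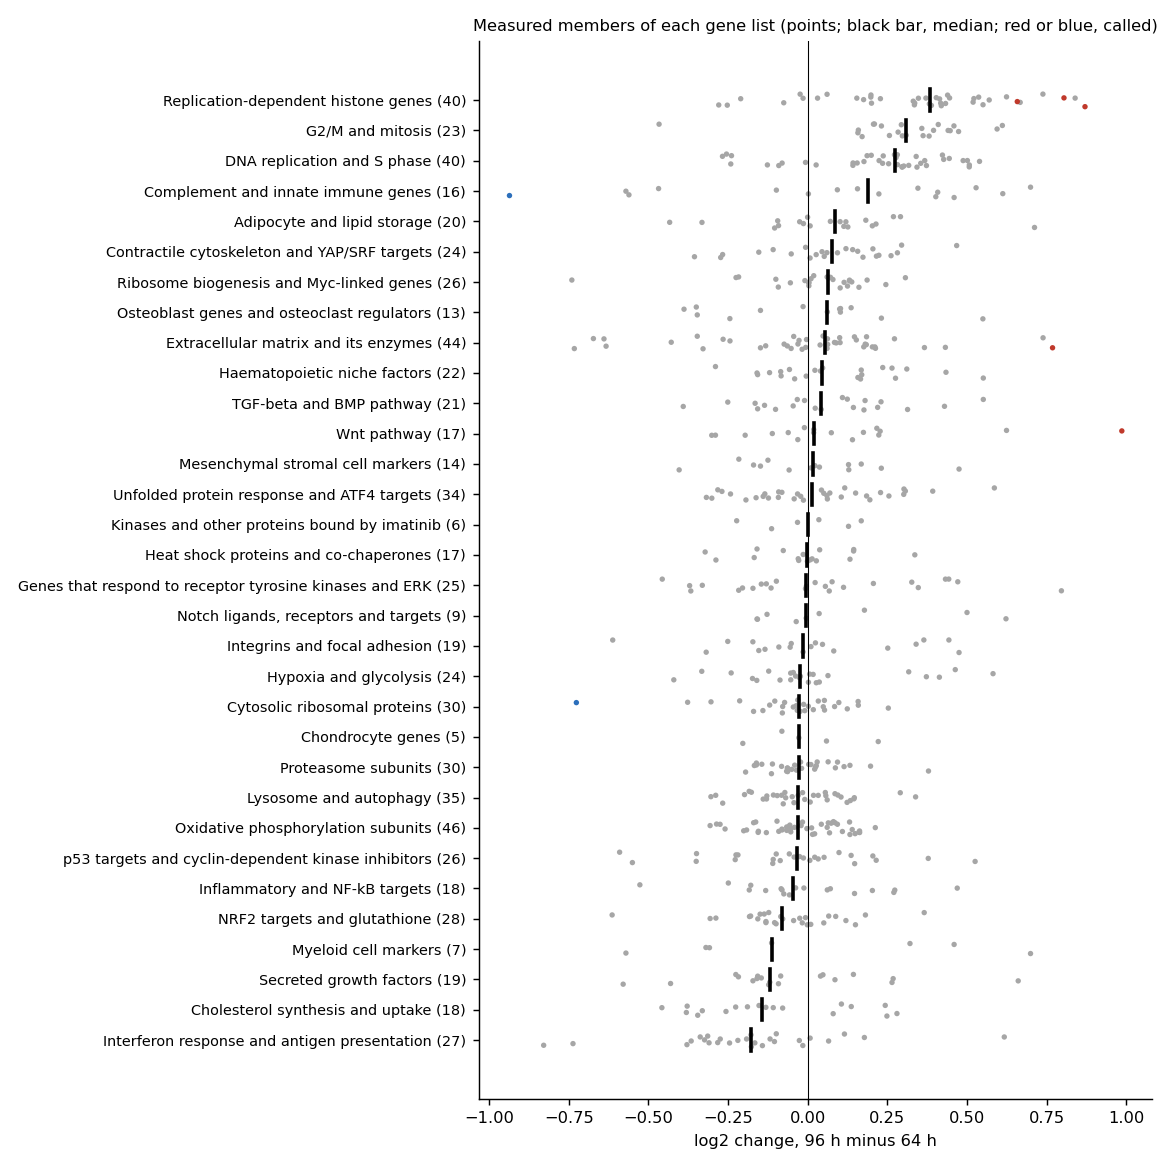
Log2 change (96 h minus 64 h, x axis) of each measured member (points) of the gene lists with at least 5 measured genes (rows, number measured in brackets); the black bar is the median, red points rose and blue points fell. The histone, G2 and mitosis, and DNA replication lists lie to the right, with medians of 0.39, 0.31 and 0.28, and the interferon list lies lowest, with a median of -0.18; the proliferin list has fewer genes and is not drawn.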

How the data were processed

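Expression was measured on 12 Illumina arrays, 3 per group. Per the file headers, the authors' non-normalized table holds a linear signal intensity for each probe and array, with background still in it, and a detection p-value. The authors also deposited intensity values normalized between arrays; log2 of these differed from the values used here by at most 0.0193. The submitters' processing notes name limma, with no settings in the sources used here.

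Values were computed in R 4.3.3 with limma 3.58.1 and data.table (version 1.17.8). Background was corrected with neqc using the detection p-values, with an offset of 16, and the 12 arrays were quantile-normalized on the log2 scale. Of 45281 probes, 34885 had 1 gene symbol, 18 several and 10378 none in the platform annotation; 18897 passed the filter and 15961 of these had 1 gene. Of the 10211 genes, 3863 had more than 1 kept probe. The 4 group means were fitted over all arrays (8 residual degrees of freedom), and the contrast of 96 h with 64 h was tested with moderated variances and Benjamini-Hochberg adjustment. A change is 96 h minus 64 h. Where no array of a group detected a gene, the fold is a bound against the lowest detected level.

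Genes named were the 15 largest increases and decreases among called genes with no overlap between the groups, without predicted transcripts, up to 4 called members of each list, all measured imatinib targets and a set of genes for stromal support, growth factors and matrix. Gm5662, 4930524J08Rik, Lyz1, Lyz2, Cd14, Aif1, Prl2c1, Prl2c5, Bmp4, Fdps, the uncalled histone and cell cycle genes and second probes were named after their values were seen. The comparison, gene lists and named genes were chosen with earlier results of these data known; of 964 list entries, 893 had a probe and 688 were measured. Symbols and promoters came from RefSeq (GRCm38.p6), used only for names and promoters. Alternatives were other background, scaling, filter, offset, variance and probe settings, the 6 arrays alone, the deposited values, a replicate block and each array left out. Deviations of same-numbered 96 h and 64 h arrays correlated at 0.0145, 0.00289 and 0.00691, so no shared effect of the replicate number was seen. These values cannot show whether same-numbered samples were prepared together.

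In a test on simulated data with 18897 probes and 50 changed at each fold, 48% of 1.5-fold and 94% of 2-fold changes were recovered for this comparison, and 9 of 178 calls were false. The 178 calls there, against 52 in the data, made the adjusted p less strict, so recovery in the data may be lower. The simulated noise was independent between probes and held no effect of array label. Depth does not apply to arrays; the number of arrays limits the precision. Python 3.11.15 and matplotlib 3.10.9 drew the figures. No array was left out of the main comparison.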

Additional observations from a re-analysis of the deposited data

How the results depend on the processing

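Of the 24 named genes called, 5 (Prl2c2, Prl2c3, Prl2c4, Aqp1 and Trem2) were called under all 25 alternatives. None of the 24 reversed in direction. The counts depended on the processing more than those 5 genes did. Without background correction there were 123 probes higher at 96 h and 105 probes lower at 96 h, 83 genes higher at 96 h and 69 genes lower at 96 h, 21 list members higher at 96 h and 19 list members lower at 96 h (histones not counted among the lists), 80 called genes in steady order over the 4 groups and 21 called genes with array labels apart. The same 8 counts were 93, 83, 59, 49, 16, 13, 62 and 14 with offset 50. They were 104, 101, 65, 59, 14, 17, 71 and 13 with trended and robust variances, and 60, 71, 32, 38, 6, 11, 44 and 7 with the strict detection filter. They were 25, 27, 12, 14, 2, 5, 21 and 1 as reported. With only the 6 arrays compared, 3 probes were higher and 6 lower, 2 genes higher and 5 lower, and 0 list members higher; here fewer arrays estimate the spread, and no order over the groups can be given. With imatinib 32 h replicate 3 and 64 h replicate 3 left out together, chosen after seeing the data because they lay apart on the third component, the 8 counts were 6, 8, 3, 6, 1, 4, 9 and 0. The remaining changes were 4 list members higher when each array label was normalized on its own, 19 genes higher, 5 list members higher and 3 called genes with labels apart when a gene's probes were averaged, and 5 called genes with labels apart with no detection filter. With single arrays left out, the ranges were 3 to 21 probes higher, 6 to 26 lower, 2 to 12 genes higher, 5 to 14 lower, 0 to 3 list members higher, 4 to 6 lower, 7 to 22 genes in steady order and 0 to 2 with labels apart. The cause of these differences was not tested. The replicate block gave 20 probes higher and 24 lower, 11 genes higher and 13 lower; it ended the calls of Prkg2, Sertad4, Col8a1, Gatb and Bcdin3d. The median change over all probes was at most 0.042 from 0 under each scaling. Genes that missed the threshold may differ by 1.5-fold, since 48% of such changes were recovered in simulation, and recovery in the data may be lower.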

Other observations

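Some genes had a second probe that was called while the gene's brightest probe was not; these were noticed after the values were seen. Lyz2, a lysozyme gene, had a second probe at 0.95 ± 0.14 (adjusted p = 0.00918) beside 0.46 ± 0.15 for its brightest probe. H2ac13, a histone H2A gene, had a second probe at 0.58 ± 0.11 (adjusted p = 0.0432) beside 0.23 ± 0.12 for its brightest probe. The means of that second probe were 10.72 in vehicle, 9.95 at 32 h, 9.97 at 64 h and 10.54 at 96 h. Its array labels lay wholly apart. A dim probe of Eef1a1, an elongation factor gene, was at -0.82 ± 0.12, while both bright ones were at 0.00 and -0.05. The array labels of the dim probe lay wholly apart as well. Prdx1, a peroxiredoxin gene, had a dim probe at -0.74 ± 0.14 beside 0.00 ± 0.13 for the bright one, and the growth factor receptor gene Egfr a dim probe at -0.67 ± 0.12 beside 3 others at -0.14 to -0.18. Samhd1 had a dim probe that was higher at 96 h (0.67 ± 0.13) beside brighter probes at 0.03 and 0.14. Rnf14 had a dim probe that no 64 h array detected, at least 1.61-fold higher at 96 h (adjusted p = 0.0432), beside brighter probes at -0.05 and 0.03. For Tmprss13, a protease gene, both probes were near the floor of the scale and differed in direction. One, detected on no 64 h array, was at least 1.41-fold higher at 96 h (adjusted p = 0.0123). The other, detected on no 96 h array, was at least 1.19-fold lower and did not pass (adjusted p = 0.176).

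Some genes narrowly missed the threshold, and they are named here after their values were seen. Palmd, Itga5 and Slc25a15 had the same adjusted p of 0.0524 as Vegfc, Timp3 and H4c9. Itga5, the fibronectin receptor subunit gene, was at -0.61 ± 0.12 and Slc25a15, a mitochondrial ornithine carrier gene, at -0.78 ± 0.16, while Palmd was at 0.72 ± 0.14. The matrix genes Col15a1 (-0.73 ± 0.15, adjusted p = 0.0580), Col18a1 (-0.63 ± 0.14, adjusted p = 0.0681) and Thbs1 (0.74 ± 0.16, adjusted p = 0.0702) followed. Col15a1 and Col18a1 encode the collagens of the endostatin-bearing kind, and Thbs1 encodes thrombospondin.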
